A study of Homo sapiens with 4 samples.

Results

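The genes described here are 37 genes of the unfolded protein response and of protein folding in the endoplasmic reticulum, measured in HCT116, a human cell line established from a colon cancer. They were taken by gene symbol from a list of stress sensors, chaperones, folding enzymes and degradation factors, and every one of the 37 was found, among 20226 genes with ratios in the authors' deposited table. Cells were transfected in 4 ways, with 1 Affymetrix array each. The plasmid transfections carried pcDNA3.1-pri-miR663a, which expresses the primary transcript of the microRNA miR663a, or the empty pcDNA3.1 vector. The RNA transfections carried a single-stranded inhibitor of miR663a or a single-stranded scrambled RNA. All groups are the same cell line in the same medium, and the labels give no time after transfection and no separate cultures. The design text names a search for genes lowered by miR663a and raised by its inhibition. For the 2 RNA arrays the sample titles name the groups the other way round from all further labels. The direction used here, inhibitor over scrambled RNA, follows the source and genotype labels and the header of the authors' deposited table.

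Endoplasmic reticulum (ER) is where secreted and membrane proteins fold. When unfolded proteins build up there, the chaperone BiP leaves the sensors ATF6, IRE1 (ERN1) and PERK (EIF2AK3). ATF6 is then cut by Golgi proteases, IRE1 splices XBP1 mRNA, and PERK slows translation and favours ATF4. The transcription factors made in this way raise genes for chaperones, disulfide isomerases and the machinery that sends misfolded proteins to the proteasome. Splicing of XBP1 and cleavage of ATF6 are not seen by these arrays, which report total transcript only.

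The agent of the overexpression is shown first, with the seed, bases 2 to 8, in capitals. RefSeq places the mature microRNA at chr20:26208243-26208264 on the minus strand of GRCh38.p14, and it has 22 bases.
hsa-miR-663a: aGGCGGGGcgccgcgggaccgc

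Promoter windows of the members are shown next, because several genes of this group are known to carry short ER stress elements near their start, through which ATF6 acts. The ERSE was searched as CCAAT, 9 bases of any kind and CCACG, and the ERSE-II as ATTGG, any 1 base and CCACG, each on both strands, in RefSeq windows of GRCh38.p14 that run from 250 bases before to 50 after a gene's start. A window was found for 33 of the 37 members. The ERSE was in 7 of these 33 members and in 27 of all 35116 windows (0.0769%). The ERSE-II was in 3 members and in 19 of all windows (0.0541%), and no window held both. So 10 members, HSPA5, HSP90B1, CALR, CANX, PDIA6, CRELD2, XBP1, HYOU1, SDF2L1 and HERPUD1, were among the 44 genes of 27305 in which either element was found. The exact letters were required, so other windows may hold variants of the elements. A match is a description of these letters only.

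The windows that carry the elements of 5 members that recur below are given 5′ to 3′ on the gene's strand, with the element in capitals. On the minus strand are HSPA5 at chr9:125241376-125241424 and XBP1 at chr22:28800588-28800636. On the plus strand are HERPUD1 at chr16:56932010-56932050 and CALR at chr19:12938369-12938417. The whole 300-base window of HYOU1, on the minus strand at chr11:119057156-119057455, is shown because it holds the ERSE-II 2 times, both in the reverse direction.
HSPA5, ERSE: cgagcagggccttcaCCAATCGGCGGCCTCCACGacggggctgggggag
XBP1, ERSE: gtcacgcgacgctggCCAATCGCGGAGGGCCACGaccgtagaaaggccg
HERPUD1, ERSE-II: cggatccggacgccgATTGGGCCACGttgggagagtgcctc
CALR, ERSE on the reverse strand: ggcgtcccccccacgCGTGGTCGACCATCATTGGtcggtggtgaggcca
HYOU1, ERSE-II on the reverse strand: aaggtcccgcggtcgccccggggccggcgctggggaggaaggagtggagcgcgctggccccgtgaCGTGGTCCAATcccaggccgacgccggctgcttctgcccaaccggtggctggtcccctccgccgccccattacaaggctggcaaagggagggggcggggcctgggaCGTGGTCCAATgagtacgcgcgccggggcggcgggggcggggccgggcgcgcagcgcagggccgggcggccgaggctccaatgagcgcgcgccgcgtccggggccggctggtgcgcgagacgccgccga

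Counting the start base as 0, the element lay at -66 to -48 in HSPA5, -52 to -34 in XBP1, -117 to -107 in HERPUD1 and -225 to -207 in CALR. HYOU1 held its elements at -185 to -175 and at -79 to -69. HSP90B1, which encodes the ER Hsp90 GRP94, held an ERSE in each direction, at -194 to -176 and at -89 to -71. For CANX the same element was seen from 3 annotated starts.

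**Figure D1:**
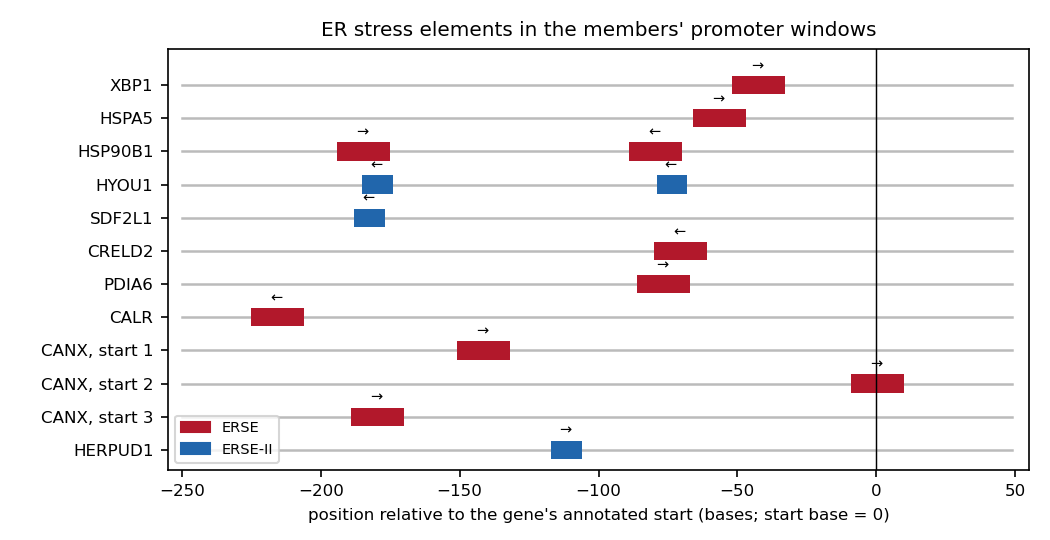
Position of each ERSE (red) and ERSE-II (blue) in the promoter windows of 10 members, on an axis of bases from the annotated start, where the start base is 0 and arrows give the direction of the element. Elements lie upstream of the start, from -225 in CALR to -34 in XBP1, except at 1 of the 3 annotated starts of CANX, which the element crosses.

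Levels on each array, as log2 signal per probe set, were at hand for 18 of the 37 members, and the other 19 had ratios only. The authors' deposited table lists 95 probe sets for the 37 members, from 1 to 5 a gene, and 27 of them had levels. A further probe set that names both ATF6B and another gene was left out. Where a gene had several probe sets with levels, the brightest was used. All 18 passed the filter, a mean over the arrays above 4.16, as did 5615 of all 8786 genes with levels. Array medians ran from 4.12 to 4.19 and pairs of arrays correlated between 0.9945 and 0.9967. Of 7 colon epithelial markers with levels 6 passed the filter, with EPCAM, KRT18, KRT19 and CDH1 between 9.17 and 13.20 on all arrays, VIL1 at 4.59 to 4.77, and LGALS4 below the filter. Of markers of other cells, 2 of 4 for leukocytes, 3 of 4 for fibroblasts and 1 of 4 for endothelium passed. The filter is only the mean array median, so passing it does not show that a gene is expressed. Among the leukocyte markers CD79A was at 5.32 to 5.75, CD3E at 4.31 to 4.70 and PTPRC, below the filter, at 2.04 to 2.34. The fibroblast marker COL1A1 was at 7.48 to 8.05. Fewer expressing cells and less RNA per cell cannot be told apart in such bulk cultures. There was 1 array per group, so neither miR663a comparison has a replicate check or a test. Probe sets differ in their brightness, so levels are not compared between genes.

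The first comparison asked what differed when miR663a was overexpressed, as overexpression minus vector. A log2 ratio of 0.32 or more in size was counted as a difference, with no test behind it. Of the 18 members with levels, 3 were lower by this measure (DNAJC3, SEC24D and XBP1), where 10.7% of all 5615 genes were, and 0 were higher, where 6.61% were. The members' median log2 ratio was -0.06, beside -0.05 over all genes, and 12 of 18 lay below 0, as did 59.5% of all genes. At 1.5-fold, DNAJC3 and SEC24D were lower, beside 1.69% of all genes, and 0 members were higher, beside 1.18%. With an offset of 64 added on the linear scale DNAJC3 was at -0.34 and SEC24D at -0.48, and with quantile normalization SEC24D was at -0.54, all short of 1.5-fold. The median of the members lay close to that of all genes, and the 3 named genes lay under it by the rule that named them.

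**Figure D2:**
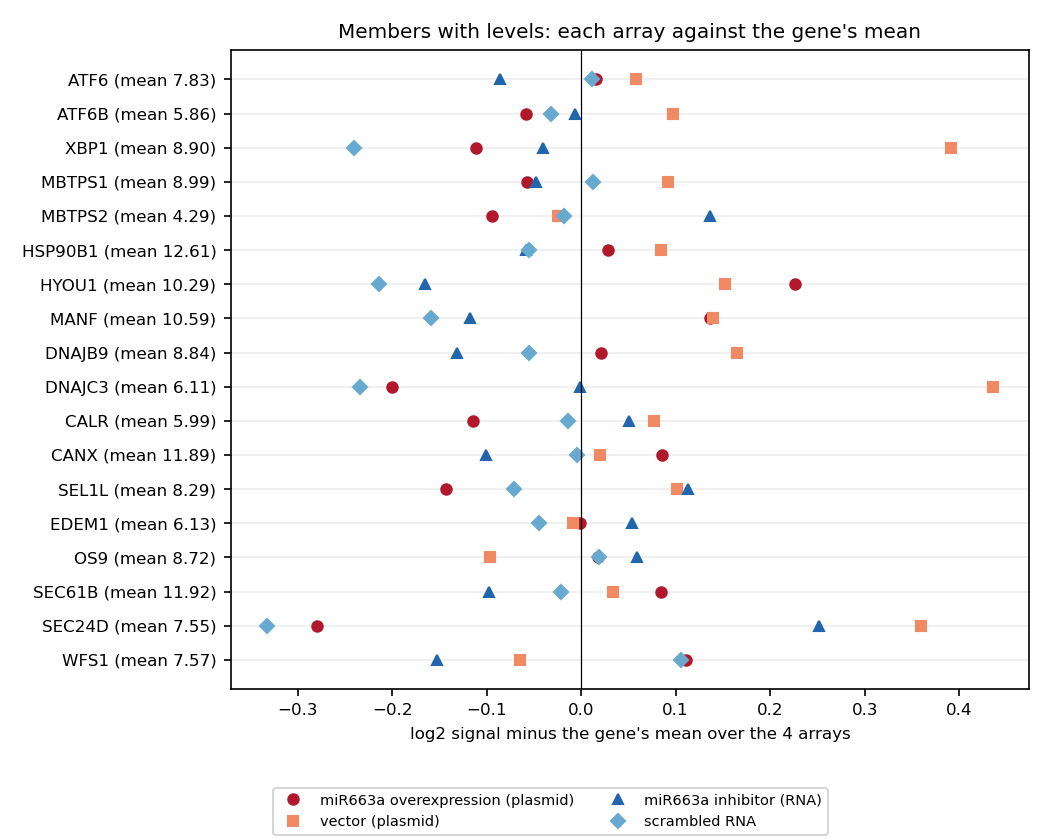
Log2 signal of the 18 members with levels on each array, as the difference from the gene's own mean over the 4 arrays, which is given beside its name. The vector array (squares) stands to the right for XBP1, DNAJC3 and SEC24D, and both plasmid arrays stand to the right of both RNA arrays for HYOU1, MANF and DNAJB9.

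Among the sensors and their proteases, XBP1, the transcription factor activated by IRE1, had a log2 signal of 8.79 with overexpression and 9.29 with vector. It had 8.86 with the inhibitor and 8.66 with scrambled RNA. The vector array was thus the highest of the 4, and the others lay within 0.20 of each other. Its overexpression log2 ratio was -0.50, or 1.42-fold lower, but a second XBP1 probe set, listed in the authors' deposited table, had 0.06.

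ATF6, the sensor that is itself cut into a transcription factor, had 7.85 with overexpression and 7.89 with vector, against 7.74 with the inhibitor and 7.84 with scrambled RNA. Its 4 arrays thus spanned 0.14. All 4 ATF6 probe sets of the authors' deposited table lay below 0 with overexpression, from -0.30 to -0.01. Its relative ATF6B had 5.80 with overexpression and 5.95 with vector. It stayed close on the RNA arrays, at 5.85 with the inhibitor and 5.83 with scrambled RNA, and in the authors' deposited table its further probe sets had overexpression log2 ratios of 0.15 and 0.48, opposite to the -0.15 of the one used.

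MBTPS1, the site-1 protease that makes the first cut in ATF6, had 8.93 with overexpression and 9.08 with vector, and 8.94 with the inhibitor, an inhibitor log2 ratio of -0.06 over scrambled RNA. MBTPS2, the site-2 protease that makes the next cut, was dim, with 4.20 with overexpression and 4.27 with vector, and 4.43 with the inhibitor and 4.27 with scrambled RNA. Neither protease reached a size of 0.32 on these probe sets. A second, dimmer MBTPS2 probe set had an overexpression log2 ratio of 0.57, from 2.76 with overexpression and 2.19 with vector, both far under the array medians. ERN1, the kinase and RNase IRE1, had ratios only, with overexpression log2 ratios of 0.15 and 0.29 on its 2 probe sets in the authors' deposited table. EIF2AK3, the kinase PERK, had -0.10 and 0.52 there, in opposite directions.

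The DnaJ co-chaperones, which hand substrates to BiP and stimulate its ATPase, were the lowest of the 7 role groups with overexpression. Over their 12 probe sets in the authors' deposited table, 11 had overexpression log2 ratios below 0, beside 52.6% of all probe sets. The median of the 4 genes was -0.29, beside -0.01 over all genes. The 11 probe sets belong to DNAJB9, DNAJC3 and DNAJC10. DNAJC3, also known as P58IPK, an inhibitor of PERK as well as a co-chaperone, had a signal of 5.91 with overexpression and 6.55 with vector, with 6.11 with the inhibitor and 5.88 with scrambled RNA. It was 1.55-fold lower with overexpression. The vector array again stood alone at the top, and the overexpression array lay between the 2 RNA arrays. In the authors' deposited table the remaining DNAJC3 probe sets had log2 ratios of -0.20, -0.35 and -0.35, so all 4 had the same sign.

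DNAJB9, or ERdj4, which also holds IRE1 inactive, had 3 probe sets with levels. On the brightest its signal was 8.86 with overexpression and 9.01 with vector, on the next 7.63 and 7.98, and on the dimmest 6.73 and 7.33. Overexpression was lower than vector on each, with log2 ratios of -0.14, -0.35 and -0.60. The size grew as the probe set was dimmer, and the probe set used for the gene gave the smallest value.

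DNAJC10, or ERdj5, a reductase that opens disulfide bonds before degradation, had ratios only, and its 4 probe sets in the authors' deposited table had overexpression log2 ratios of -0.15, -0.47, -0.23 and -0.24. DNAJB11, or ERdj3, had 1 probe set there, with an overexpression log2 ratio of 0.0001. DNAJB9, DNAJC3 and DNAJC10 therefore lay below 0 on every probe set, and DNAJB11 did not share this.

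Of the large chaperones, HSPA5, which is BiP itself, had ratios only, and its 2 probe sets in the authors' deposited table had overexpression log2 ratios of -0.19 and -0.14. HSP90B1 had a signal of 12.64 with overexpression and 12.69 with vector, and 12.55 on both RNA arrays. Its 4 probe sets in the authors' deposited table all lay below 0 with overexpression, from -0.28 to -0.05. HYOU1, the ER Hsp110 that exchanges nucleotides on BiP, had 10.52 with overexpression and 10.44 with vector. MANF, a secreted factor that binds BiP, had 10.72 with overexpression and 10.73 with vector. In the authors' deposited table SDF2L1, a partner of the ER DnaJ proteins, had an overexpression log2 ratio of 0.15, and CRELD2, a secreted protein with disulfide isomerase activity, had 0.04. None of these 6 genes reached a size of 0.32.

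Enzymes and lectins of the folding cycle had small overexpression ratios on most probe sets. PDIA6, a disulfide isomerase that also acts on IRE1, had log2 ratios on its 4 probe sets of the authors' deposited table from -0.01 to 0.11. PDIA4, or ERp72, had 0.08 and -0.30 there. PDIA3, or ERp57, which works with the lectin chaperones, had 0.07 and -0.02 on the probe sets that the authors' deposited table lists on chromosome 15, and -0.33 on a probe set that it lists on chromosome 1. Whether that probe set detects PDIA3 was not examined.

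CALR, the soluble lectin chaperone calreticulin, had a signal of 5.88 with overexpression and 6.07 with vector. Its further probe sets in the authors' deposited table had overexpression log2 ratios of 0.08 and -0.01. CANX, its membrane-bound relative calnexin, had 11.98 with overexpression and 11.91 with vector, and its 5 probe sets in the authors' deposited table ran from -0.23 to 0.36. UGGT1, the glucosyltransferase that tags unfolded glycoproteins for another round, had 4 of 5 probe sets below 0 in the authors' deposited table, with log2 ratios of -0.41, -0.29, -0.27, -0.02 and 0.09. Of these 6 genes UGGT1 had the lowest median, at -0.27, short of the size counted.

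Degradation factors were represented by 10 genes, of which 7 had median overexpression log2 ratios below 0 in the authors' deposited table, beside 51.2% of all genes. None reached a size of 0.32 by its median. SEL1L, the adaptor of the HRD1 ubiquitin ligase, had a signal of 8.15 with overexpression and 8.40 with vector, against 8.41 with the inhibitor and 8.22 with scrambled RNA. Its log2 ratio of -0.24 stood beside 0.08, 0.11 and 0.16 on its further probe sets with levels, the last of them at 2.90 with overexpression and 2.74 with vector, under the array medians. The fifth SEL1L probe set had -0.22 in the authors' deposited table, and SYVN1, the ligase HRD1, had -0.18 and 0.02 in the authors' deposited table.

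EDEM1, EDEM2 and EDEM3 encode mannosidase-like proteins that mark glycoproteins for degradation. EDEM1 had 6.13 on both plasmid arrays. In the authors' deposited table EDEM2 had an overexpression log2 ratio of -0.20 on its only probe set. EDEM3 had the lowest overexpression ratio of all member probe sets there, 0.552, or -0.86 on the log2 scale, but its other probe sets had -0.15 and -0.08.

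The derlins carry proteins back across the membrane. DERL1 had overexpression log2 ratios of -0.56, 0.05, -0.28 and 0.12 on its 4 probe sets in the authors' deposited table, DERL2 had -0.10 and 0.12, and DERL3 had 0.18, -0.53 and 0.25. Each derlin thus had probe sets in both directions. OS9, a lectin that delivers glycoproteins to SEL1L, had 8.74 with overexpression and 8.62 with vector, and HERPUD1, a membrane scaffold of the ligase complex, had an overexpression log2 ratio of -0.15 by the authors' deposited table.

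SEC24D, a cargo-binding subunit of the COPII coat that carries proteins out of the ER, had, with DNAJC3, the lowest overexpression ratio among the probe sets used for genes with levels. Its signal was 7.27 with overexpression and 7.91 with vector, or 1.56-fold lower. It was 7.80 with the inhibitor and 7.21 with scrambled RNA, so the vector and inhibitor arrays were high and the other 2 low. In the authors' deposited table the further SEC24D probe sets had overexpression log2 ratios of -0.50 and -0.09. SEC61A1 and SEC61B, subunits of the translocation channel, showed no such difference: SEC61A1 had 0.02 and 0.03 in the authors' deposited table, and SEC61B had 12.00 with overexpression and 11.95 with vector. WFS1, the ER membrane protein wolframin, had 7.68 with overexpression and 7.50 with vector, and both its probe sets lay above 0, at 0.17 and 0.30.

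Over all 95 member probe sets of the authors' deposited table, 14 had overexpression log2 ratios of -0.32 or lower, beside 10.6% of all probe sets, and 4 were as far above 0, beside 10.4%. These are 14.7% and 4.21% of the member probe sets. By the median of a gene's probe sets, 3 of the 37 members were lower by the same measure (DNAJB9, DNAJC3 and SEC24D), beside 6.4% of all genes, and 0 were higher, beside 7.72%. By sign, 23 of the 37 medians lay below 0, beside 51.2% of all genes. Of the 17 members with 3 or more probe sets, 7 had every probe set below 0 (ATF6, DNAJB9, DNAJC3, DNAJC10, EDEM3, HSP90B1 and SEC24D), beside 18.5% of such genes, a share of 41.2% of these members. The other 10 had probe sets on both sides of 0, beside 71.4% of such genes. Probe sets of a gene share their transcript and their arrays, so they are not replicates of the transfection.

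**Figure D3:**
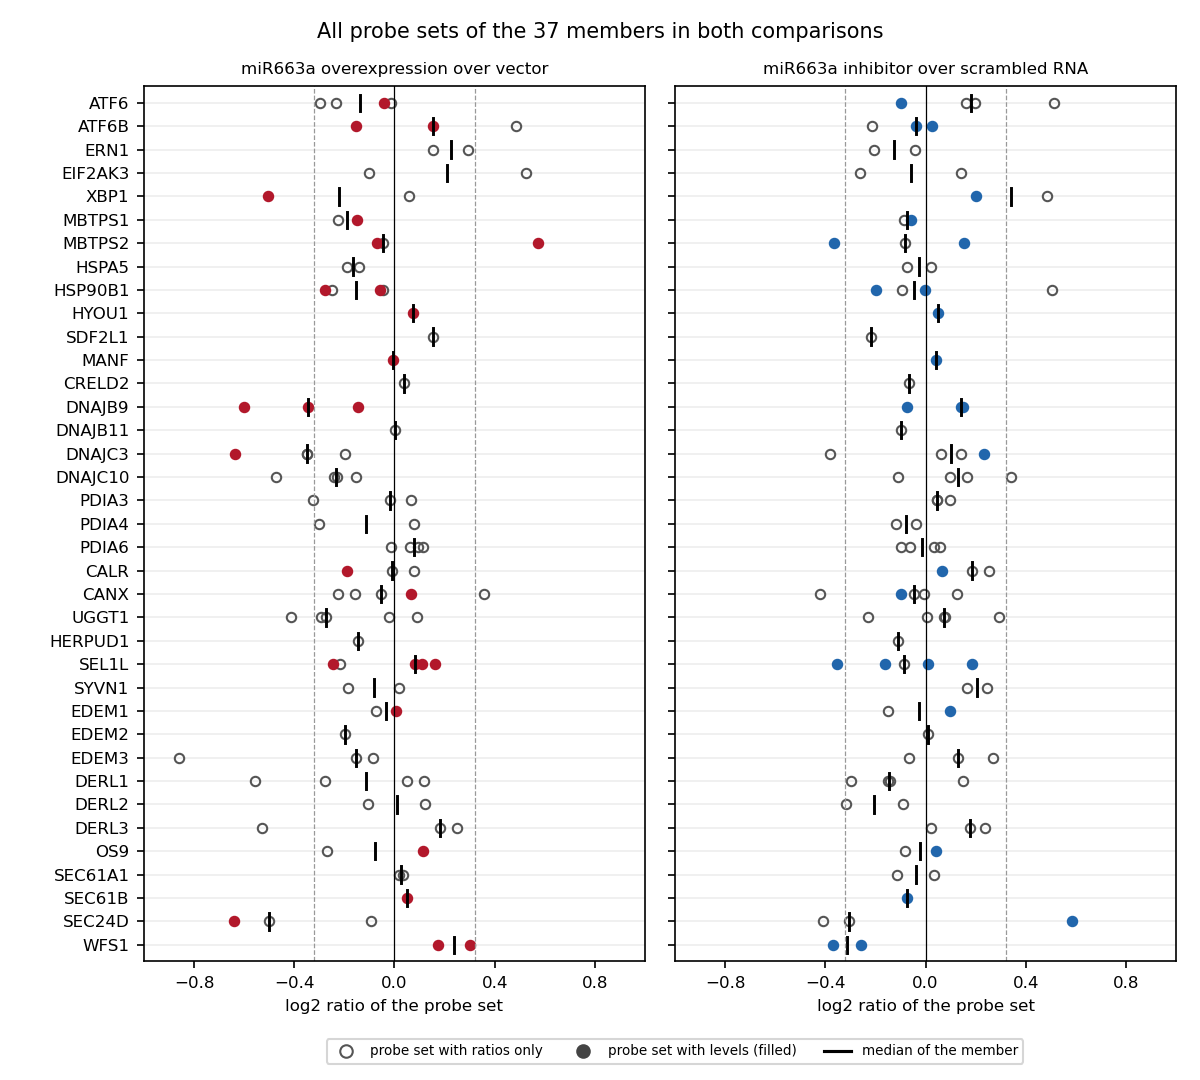
Log2 ratio of each of the 95 member probe sets, with overexpression over vector on the left and inhibitor over scrambled RNA on the right, filled where levels were at hand, with a bar at each member's median and dashed lines at the size counted as a difference. With overexpression all probe sets of DNAJB9, DNAJC3 and DNAJC10 lie left of 0, and 14 probe sets lie past the lower line against 4 past the upper one.

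On the vector array itself, 10 of the 18 members had their highest value of the 4 arrays, beside 30% of all genes. These were ATF6, ATF6B, XBP1, MBTPS1, HSP90B1, MANF, DNAJB9, DNAJC3, CALR and SEC24D. The overexpression array was the lowest of the 4 in 5 members, beside 34.4% of all genes. For XBP1 and DNAJC3 the overexpression array differed from the mean of both RNA arrays by log2 differences of 0.03 and -0.08. For SEC24D, also counted as lower with overexpression, this difference was -0.24. In each of these genes the vector array was the highest of the 4. The RNA arrays also differ from the overexpression array in delivery, and the cause of the high vector value was not tested. With 1 vector array, its own deviation and the action of miR663a cannot be told apart.

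The second comparison asked what differed when miR663a was inhibited, as inhibitor minus scrambled RNA. Of the 18 members with levels, 1 was higher by 0.32 or more on the log2 scale (SEC24D), where 5.36% of all genes were, and 0 were lower, where 4.58% were. At 1.5-fold no member was counted in either direction, beside 0.57% of all genes higher and 0.481% lower. The median log2 ratio was 0.04, beside -0.02 over all genes, and 11 of 18 lay above 0, beside 45.0% of all genes. By the counts of 0.32 or more and the median the members lay near the background. By sign, a larger share of them lay above 0 than of all genes.

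SEC24D had an inhibitor log2 ratio of 0.58 on the probe set with levels. In the authors' deposited table its further probe sets lay on the opposite side of 0, at -0.31 and -0.41. XBP1 had an inhibitor log2 ratio of 0.20 on the probe set with levels and 0.48 on the other one in the authors' deposited table, so both lay above 0. By the median of its probe sets there, at 0.34, it was the only 1 of the 37 members counted as higher, beside 3.32% of all genes. By that median 0 were lower, beside 4.29%, with WFS1 nearest at -0.31. Medians above 0 were found in 14 of 37, beside 43.4% of all genes.

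WFS1 had a signal of 7.41 with the inhibitor and 7.67 with scrambled RNA, and its second probe set had 6.45 with the inhibitor and 6.82 with scrambled RNA. Both probe sets were therefore lower with the inhibitor and, as given above, higher with overexpression. ERN1 had the same pair of signs on both probe sets in the authors' deposited table, with inhibitor log2 ratios of -0.04 and -0.21.

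DNAJC3 had inhibitor log2 ratios of 0.23, 0.06, 0.14 and -0.38 on the 4 probe sets of the authors' deposited table, and DNAJC10 had -0.11, 0.34, 0.17 and 0.10. DNAJB9 had -0.08, 0.14 and 0.15 from the brightest probe set to the dimmest. Each of these DnaJ genes thus lay above 0 on all probe sets but 1. Of the other members with 3 or more probe sets, CALR, DERL3 and PDIA3 lay above 0 on every one with the inhibitor, which makes 3 of 17, beside 7.4% of such genes.

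The remaining inhibitor ratios were small or split between probe sets. The lectin chaperone CANX ran from -0.42 to 0.13 over its 5 probe sets of the authors' deposited table, and SEL1L from -0.35 to 0.18 over its 5. HSP90B1 had 0.50 on 1 of its 4 probe sets of the authors' deposited table and -0.20, -0.09 and -0.0023 on the others. SYVN1, which encodes the ligase HRD1, had 0.16 and 0.25 there, and DERL2 had -0.09 and -0.32. HSPA5 had 0.02 and -0.07 in the authors' deposited table, so BiP was near 0. Over the 95 member probe sets, 5 had inhibitor log2 ratios of 0.32 or more, beside 5.96% of all probe sets, and 6 were as far below 0, beside 7.35%.

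Both comparisons together address the selection that the study describes, and they share no array. Lower with overexpression and higher with the inhibitor, by 0.32 or more in both, was 1 of the 18 members, SEC24D, beside 2.12% of all genes. With the RNA arrays named as in their titles 0 members met this, beside 0.107% of all genes. By sign alone, 8 of 18 lay below 0 with overexpression and above 0 with the inhibitor, beside 32.2% of all genes, and these include MANF, with an overexpression log2 ratio of -0.0040. With the RNA arrays turned, 4 of 18 did (ATF6, MBTPS1, HSP90B1 and DNAJB9), beside 27% of all genes. Of the 95 member probe sets, 2 met both counts, the one of SEC24D with levels and one of DNAJC10 at -0.47 and 0.34 in the authors' deposited table, beside 1.94% of all probe sets. For SEC24D the remaining probe sets lay below 0 in both comparisons.

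**Figure D4:**
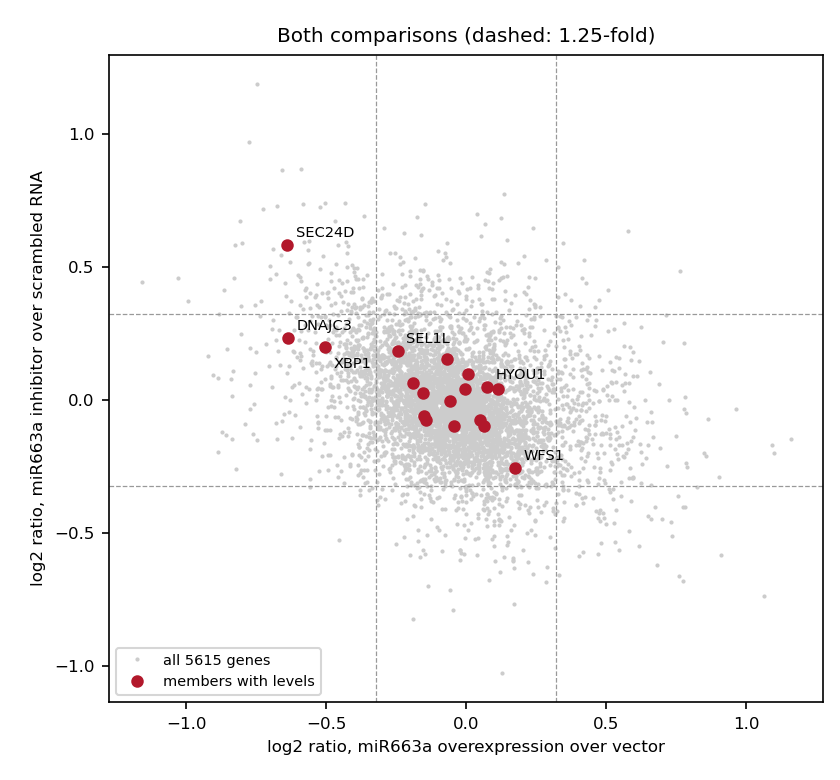
Log2 ratio with overexpression over vector (horizontal) against inhibitor over scrambled RNA (vertical) for 5615 genes (grey) and the 18 members with levels (red), with dashed lines at the size counted as a difference. SEC24D is the only member past both lines, and DNAJC3 and XBP1 lie past the line for overexpression only.

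The third comparison set the plasmid arrays, overexpression and vector, against the RNA arrays, inhibitor and scrambled RNA. The 2 arrays of a delivery carried different agents and are not replicates of a condition, so a limma fit over all 5615 genes took the difference between them as its error. Delivery cannot be told apart from anything else that differed between the 2 pairs of transfections. No member passed a Benjamini-Hochberg adjusted p of 0.05 in this fit, and over all genes 2 did, both higher with plasmid (0.0356%), and 0 were lower. At an unadjusted p under 0.05, 2 of 18 members were higher with plasmid, HYOU1 and MANF, beside 6.93% of all genes, and none was lower, beside 3.46%.

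HYOU1 had log2 signals of 10.52 and 10.44 on the overexpression and vector arrays, against 10.12 and 10.07 on the inhibitor and scrambled RNA arrays. The deliveries did not overlap, and the difference was 0.37 between the control arrays and 0.39 between the miR663a arrays. The limma difference was 0.38 ± 0.24 (95% half-interval, 2 arrays against 2), with a limma adjusted p of 0.362.

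MANF had 10.72 and 10.73 on the overexpression and vector arrays, against 10.47 and 10.43 on the inhibitor and scrambled RNA arrays. Here too the deliveries did not overlap, with differences of 0.30 between the control arrays and 0.25 between the miR663a arrays. The limma difference was 0.28 ± 0.23 (95% half-interval), with a limma adjusted p of 0.441. Both genes stood apart by delivery and hardly differed within it, which is what a low unadjusted p in this limma fit selects for.

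DNAJB9 was higher on both plasmid arrays than on both RNA arrays on its brightest probe set, with 8.86 and 9.01 on the overexpression and vector arrays, against 8.71 and 8.79 on the inhibitor and scrambled RNA arrays. The next probe set had 7.63 and 7.98 on the plasmid arrays, against 7.63 and 7.48 on the RNA arrays. The dimmest had 6.73 and 7.33 on the plasmid arrays, against 6.78 and 6.64 on the RNA arrays, where the overexpression value lay below that of the inhibitor. The limma difference on the brightest probe set was 0.19 ± 0.26, with a limma adjusted p of 0.614. XBP1 and DNAJC3 had limma differences of 0.28 ± 0.47 and 0.24 ± 0.55, and their deliveries overlapped, with the overexpression array below the inhibitor array.

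In all, 7 of the 18 members had both plasmid arrays above both RNA arrays (ATF6, HSP90B1, HYOU1, MANF, DNAJB9, CANX and SEC61B), beside 20% of all genes, and 2 had both below (MBTPS2 and OS9), beside 19.4%. Some gaps were tiny: the nearest plasmid and RNA values were 7.8453 and 7.8418 for ATF6, 8.7358 and 8.7368 for OS9, and 4.2684 and 4.2748 for MBTPS2. On further probe sets with levels HSP90B1 overlapped, at 12.13 and 12.41 against 12.22 and 12.42. ATF6B and SEL1L each had a further probe set with both plasmid arrays below, and DNAJB9 had one with both above. Outside HYOU1, MANF and DNAJB9 the limma differences of the 7 were 0.07 to 0.12. The members' median difference was 0.08, beside -0.01 over all genes, and 13 of 18 lay above 0, as did 48.0% of all genes. Without the vector array the members' median difference was 0.01. CALR, with a limma difference of -0.04 ± 0.28, and EDEM1, with -0.01 ± 0.24, were close to 0.

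For members with ratios only, the size of the plasmid to RNA difference was recovered without its sign. The authors' deposited table holds for each probe set the sum of squared deviations of its 4 log2 values, and what the 2 ratios leave of this sum is the squared difference between the deliveries. On 12704 probe sets with levels the recovered size was off by at most 0.00124. By the median of a gene's probe sets, 3 of the 37 members had sizes of 0.32 or more, HYOU1, HSPA5 and HERPUD1, beside 6.35% of all genes. Of the 95 member probe sets 6 did, beside 8.99% of all probe sets.

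HERPUD1 had the largest size by gene, 0.47 on its single probe set in the authors' deposited table, and 1 SEC24D probe set had 0.53 there. HSPA5 had 0.38 and 0.27 on its 2 probe sets there, DNAJB11 had 0.29, DERL2 had 0.23 and 0.34, and SEC61A1 had 0.12 and 0.35. For these genes it is not known whether the plasmid or the RNA arrays were higher. The 3 disulfide isomerases and UGGT1, by contrast, had median sizes from 0.05 to 0.08 in the authors' deposited table. The median size over the 37 members was 0.12, beside 0.11 over all genes.

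The elements shown above were found both in members with large and with small sizes. By the authors' deposited table the 10 members with an exact ERSE or ERSE-II had median sizes from 0.04 (CALR) to 0.47 (HERPUD1), with a median of 0.12, and the 23 with a window and no exact element had sizes from 0.02 to 0.29, with a median of 0.12. HERPUD1 and HYOU1, with the ERSE-II, and HSPA5, with the ERSE, had the highest sizes. SDF2L1, the remaining member with the ERSE-II, had 0.14, and PDIA6 and CRELD2, with the ERSE, had 0.05 and 0.06.

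**Figure D5:**
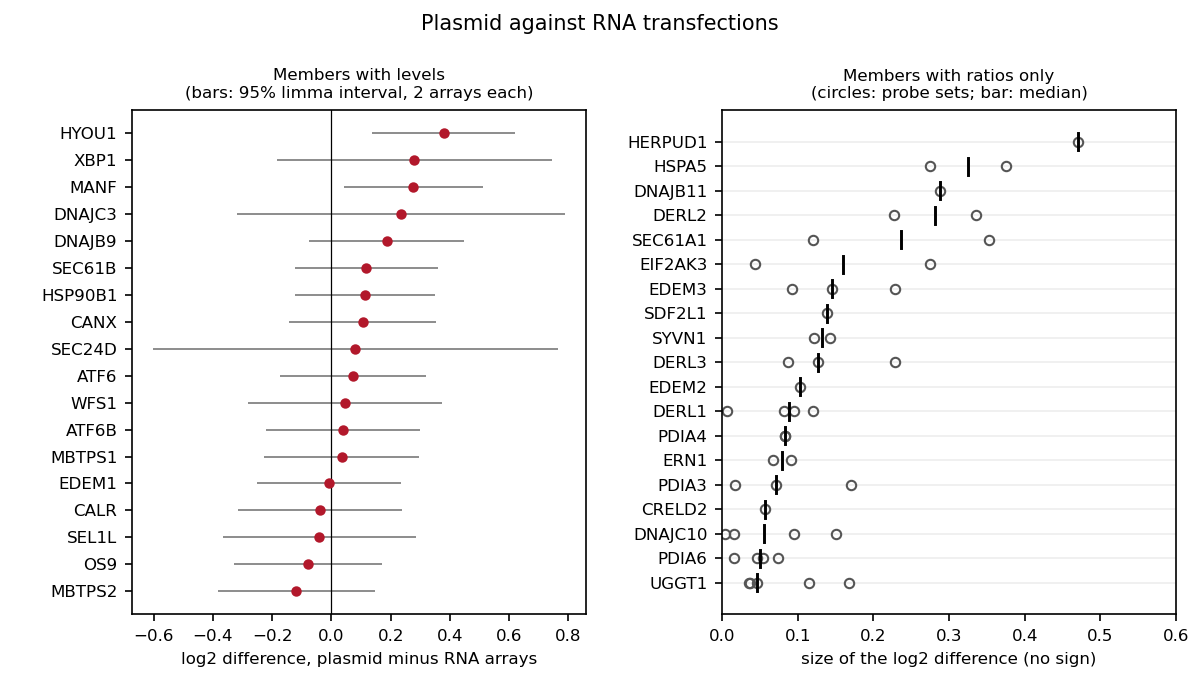
Plasmid minus RNA log2 difference of the 18 members with levels and its 95% limma interval (left), and the recovered size without sign for the 19 members with ratios only (right), with circles for probe sets and a bar for the median. The intervals of HYOU1 and MANF alone lie above 0, and HERPUD1, at 0.47, and HSPA5 have the largest sizes on the right.

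Other genes of the same pathways, in lists written from textbook roles, were counted by the same rules. In the PERK and ATF4 list 8 of 15 genes had levels, and 2 of these were counted as lower with overexpression, beside the 10.7% of all genes given above. TRIB3, a pseudokinase induced through ATF4, had 7.30 with overexpression and 7.89 with vector, or 1.51-fold lower. It had 7.55 with the inhibitor and 7.40 with scrambled RNA. CEBPG, a partner of ATF4, had 9.88 with overexpression and 10.21 with vector, a log2 ratio of -0.33. It had 9.81 with the inhibitor and 9.59 with scrambled RNA. The vector array was thus the highest in both genes, and for CEBPG the overexpression array lay above both RNA arrays. In the ER-associated degradation list, 2 of 5 genes with levels were likewise lower, beside the same 10.7%, UBE2G2, a ubiquitin-conjugating enzyme, by 1.29-fold and FAM8A1, a partner of HRD1, by 1.28-fold. The lists for oxidative folding (6 genes with levels), N-glycan transfer and trimming (5), translocation (13), the COPII coat (7) and ER stress regulators (8) held 0 genes with levels lower or higher by this measure. With the inhibitor 0 genes with levels of the 7 lists were counted.

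Over all genes of these lists with ratios, by the median of a gene's probe sets in the authors' deposited table, more were counted. With overexpression 4 of 15 in the PERK and ATF4 list were lower, TRIB3, CEBPG, NUPR1 at -0.51 and CEBPB at -0.35, where 6.4% of all genes were. In the COPII list 2 of 12 were lower, the coat subunits SEC23A at -0.43 and SEC24A at -0.33. In the degradation list 2 of 22 were lower, FAM8A1 and HERPUD2 at -0.32, while UBE2G2 was at -0.17, and 1 was higher, TMUB1 at 0.35, beside 7.72% of all genes. In the oxidative folding list 1 of 13 was lower, the thioredoxin-related TMX3 at -0.47, and among the ER stress regulators 1 of 16, NFYB at -0.35, a subunit of the factor NF-Y that binds CCAAT. The glycan and translocation lists had 0 in either direction. With the inhibitor 3 genes were lower by the authors' deposited table, ERO1B of 13 in the oxidative folding list at -0.52, TUSC3 of 16 in the glycan list at -0.34 and TMUB1 of 22 in the degradation list at -0.39, beside 4.29% of all genes, and 0 were higher, beside 3.32%.

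No gene of these lists passed the limma adjusted p of 0.05 for plasmid against RNA. At an unadjusted p under 0.05 were 3 of 8 genes of the PERK and ATF4 list and 2 of 8 of the ER stress regulators, and all 5 were higher with plasmid, beside 6.93% of all genes higher and 3.46% lower. ATF3, a stress-induced transcription factor, had 11.06 and 11.08 on the overexpression and vector arrays, against 10.40 and 10.28 on the inhibitor and scrambled RNA arrays. STC2, a secreted glycoprotein induced by ER stress, had 8.89 and 8.97 on the plasmid arrays in that order, against 8.14 and 8.32 on the RNA arrays. Their limma differences were 0.73 ± 0.25 and 0.70 ± 0.27, each with a limma adjusted p of 0.283.

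PPP1R15A, or GADD34, which restores translation after PERK has slowed it, had 8.65 and 8.66 on the overexpression and vector arrays, against 8.13 and 8.12 on the inhibitor and scrambled RNA arrays. Its limma difference was 0.53 ± 0.23, with a limma adjusted p of 0.345. DDIT4, an inhibitor of mTORC1, had a limma difference of 0.51 ± 0.29 with a limma adjusted p of 0.354, and BAK1, a mediator of apoptosis, had 0.57 ± 0.25 with one of 0.345.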

How the data were processed

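Arrays were taken as deposited. The authors' value table holds log2 signals of 16381 probe sets on 4 arrays, and per the submitters' processing notes MAS5 was used. How arrays were scaled to each other is a step not given in the sources used here. The authors' deposited ratio table gives linear ratios of 42450 probe sets and a score. Computed from the deposited values, this score equals the summed squares of a probe set's 4 log2 values about their mean. Members were matched by the table's own symbol. For the counts over all genes, probe sets were named through RefSeq accessions and symbols of GRCh38.p14 (names only), and 1006 that named several genes were left out. Each gene was taken by its brightest probe set, kept if its mean over the arrays exceeded the mean array median. Differences of 0.32 or more on the log2 scale were counted, a fixed size with no test. Plasmid against RNA arrays was fitted with limma 3.58.1 in R 4.3.3 (lmFit, eBayes, 2 residual degrees of freedom, Benjamini-Hochberg), tested on simulated data. With 1 array per group the number of arrays limits the precision. The members, the lists and the thresholds were chosen with earlier results of these data known. Named genes were all members and, of the pathway lists, up to 3 genes with levels per list and comparison with the largest difference among those of 0.32 or more. By the median ratio of a gene's probe sets, every list gene of 0.32 or more was named. Python 3.11.15, numpy 2.4.6, pandas 2.3.3 and matplotlib 3.10.9 were used. Alternatives were centring, quantile normalization, no filter or a stricter one, an offset of 64, the mean of all probe sets, 1.5-fold and 2-fold, the ratio table, the turned sign, the agent as a covariate, a trend and leaving out each array.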

Additional observations from a re-analysis of the deposited data

How the results depend on the processing

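No paired analysis was possible because each group has 1 array and the labels give no replicate numbers, other than a limma fit with the agent as a covariate, which sets control against control and miR663a against miR663a arrays and called 0 members. Of 148 values recomputed under the alternatives, 128 kept their direction and stayed within 1.5 times (counts) or 0.1 (log2), 15 moved and 5 turned sign. Many of the 128 could not move. All 18 members with levels passed under every filter, so no filter or a stricter one left their values unchanged. XBP1, DNAJC3, SEC24D, HYOU1 and MANF had 1 probe set with levels each, so the mean of all probe sets left them unchanged. Limma called 2 of all 5615 genes, so its counts of 0 had little room to change. Quantile normalization gave a member median with overexpression of 0.0035 beside 0.02 over all genes. It left 0 members with both plasmid arrays below both RNA arrays and 8 with both above. Centring left 1 below and 6 above, and the mean of all probe sets gave 3 below and 6 above of 17 members. Centring shifted the median over all genes with overexpression to -0.12. The count of 3 members lower with overexpression became 0 at 2-fold, and the count higher with the inhibitor became 0 at 1.5-fold and at 2-fold. In the ratio table the member median with the inhibitor was -0.0393 over 37 genes and SEC24D was at -0.31. With the turned sign the inhibitor median became -0.0404 and SEC24D -0.58, so 1 member was lower and 0 higher. Limma called 0 members under every alternative that was run. Leaving out each array in turn gave 0 calls and a member median difference between plasmid and RNA of 0.01 (without the vector array) to 0.12 (without the scrambled RNA array), where the lone array of a delivery is assumed to vary like the other pair. The cause of these shifts was not tested.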
